A study of Mus musculus with 4 samples.

Results

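Phosphorylation of histone 3 at serine 10 (H3S10ph) was examined at 10 heat shock and chaperone genes of mouse gastrocnemius muscle after eccentric contractions. The genes were *Hspa1a*, *Hspa1b*, *Hspa8*, *Hsp90aa1*, *Hsp90ab1*, *Hspb1*, *Cryab*, *Dnajb1*, *Hsph1* and *Bag3*, out of 21938 protein-coding genes on chromosomes 1 to 19, X and Y. The rule names the genes and uses no measured value, but the set was chosen with earlier results of these data known. A gene had a peak when a H3S10ph peak overlapped its body, extended by 5 kb on each side, by at least 1 bp. All 10 genes lie on autosomes, and 8 of them had a peak in at least 1 sample. The other 2 had none, against 31.1% of all protein-coding genes and 43.2% of those within the 10 genes' range of lengths. No gene had a peak in both stimulated samples, where these shares were 15.3% and 5.21%. The most prominent mark was on *Hspb1*, where a single peak of the second stimulated sample covered the whole gene, and it had no counterpart in the first stimulated sample.

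Heat shock proteins are chaperones that bind unfolded proteins and help them fold, disaggregate or be degraded. HSP70 proteins work in cycles of ATP hydrolysis that J domain proteins such as Dnajb1 start and that nucleotide exchange factors such as Hsph1 and Bag3 end, HSP90 proteins act later on signalling proteins, and small heat shock proteins hold unfolded proteins without ATP. In heat, oxidative stress or mechanical strain the heat shock factor Hsf1 binds repeated GAA and TTC triplets in the promoters of these genes and induces them. In skeletal muscle the small heat shock proteins and Bag3 are known to associate with the Z-disc and the cytoskeleton, which eccentric contractions load.

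ChIP-seq for H3S10ph was carried out on 4 samples of gastrocnemius muscle from male C57BL/6 mice aged 5 months. The 2 stimulated samples came from muscles that performed 50 eccentric contractions under anaesthesia, evoked at 100 Hz for 600 ms with 30 s between them, and were frozen immediately afterwards. The 2 unstimulated samples came from the contralateral muscles of the same mice, and each sample was a pool of muscles from 6 mice. Each peak list gives mm10 positions, a mean fold enrichment over background per peak, and p- and q-values as −log10. They hold no read counts, so the depth of the samples is unknown. Whole muscle was used, so more marked nuclei and more mark per nucleus cannot be told apart.

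The lists differed in length more between replicates than between conditions. They held 9094 and 32740 peaks in unstimulated replicates 1 and 2, and 10901 and 40683 peaks in stimulated replicates 1 and 2. Unstimulated replicate 1 stood apart, with 522 peaks on chromosome X against 16 to 19 in the other lists. It had 0 peaks on chromosome Y, against 6 or 7 in the others. The sex of the mice and the pairing of their muscles are as stated by the study and were not tested. Of 8 genes that mark skeletal muscle, 2 and 7 had a peak in the unstimulated and 6 and 6 in the stimulated lists, and of 8 genes that mark other cells 0 and 4 against 1 and 6 did, in the order of the replicates. A histone mark is not expression, so the tissue cannot be checked further from these lists. With 2 samples against 2 the exact permutation test cannot give a two-sided p below 0.33, so differences between the conditions are described with their spread and were not tested.

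The promoter of *Hspb1* is shown because, of the 6 genes of the set with a promoter in the RefSeq table, it is the one whose promoter lay under a peak. It runs from 250 bases before to 50 bases after the RefSeq start (RefSeq, GRCm38.p6, chr5:135887669-135887968, plus strand), and the peak of stimulated replicate 2 covered all 300 bases. The capitals mark 2 places where a GAA and a TTC triplet stand 2 bases apart, at −117 to −110 and at −97 to −90 from the start.
Hspb1: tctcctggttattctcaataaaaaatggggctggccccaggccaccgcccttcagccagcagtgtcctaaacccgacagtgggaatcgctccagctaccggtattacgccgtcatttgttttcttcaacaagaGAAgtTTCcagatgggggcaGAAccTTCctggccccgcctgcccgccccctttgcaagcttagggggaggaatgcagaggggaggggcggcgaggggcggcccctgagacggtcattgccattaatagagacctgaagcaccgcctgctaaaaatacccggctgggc

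The promoters of the HSP70 genes *Hspa1a* (chr17:34972107-34972406, minus strand) and *Hspa1b* (chr17:34959189-34959488, minus strand) are shown because these genes are near-identical copies, and multi-mapping reads were removed before peaks were called. They are given 5′ to 3′ along the gene. The capitals mark the 4 positions at which the copies differ, and the remaining 296 of the 300 bases were identical (98.7%).
Hspa1a: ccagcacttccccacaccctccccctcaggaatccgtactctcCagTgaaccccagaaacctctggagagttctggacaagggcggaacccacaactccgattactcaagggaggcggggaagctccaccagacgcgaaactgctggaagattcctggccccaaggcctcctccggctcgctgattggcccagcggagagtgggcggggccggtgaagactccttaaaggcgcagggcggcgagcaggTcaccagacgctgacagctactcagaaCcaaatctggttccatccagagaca
Hspa1b: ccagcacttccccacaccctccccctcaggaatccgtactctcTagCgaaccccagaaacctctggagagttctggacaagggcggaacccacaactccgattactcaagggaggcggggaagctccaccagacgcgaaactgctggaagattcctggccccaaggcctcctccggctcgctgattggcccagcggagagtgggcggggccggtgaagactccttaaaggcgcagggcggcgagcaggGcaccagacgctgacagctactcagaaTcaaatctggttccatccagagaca

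In the list of stimulated replicate 2, 6 of the 10 genes had a peak, against 52.5% of all protein-coding genes by the same rule. These were *Hspa1a*, *Hspa8*, *Hsp90ab1*, *Hspb1*, *Cryab* and *Bag3*. In stimulated replicate 1 only *Hsp90aa1* had a peak (background 19.9%). In unstimulated replicate 1 only *Hspb1* did (background 14%), and in unstimulated replicate 2 *Hsp90aa1* and *Dnajb1* did (background 39.3%). The number of genes with a peak thus followed the length of the list, as it did for all genes. The 10 genes are shorter than most, with a median length of 5404.5 bp against 17425 bp. Among the 11412 protein-coding genes within their range of lengths, 1645 to 23366 bp, the shares were 4.95% and 23.8% in the unstimulated and 10.1% and 38.5% in the stimulated lists.

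**Figure D1:**
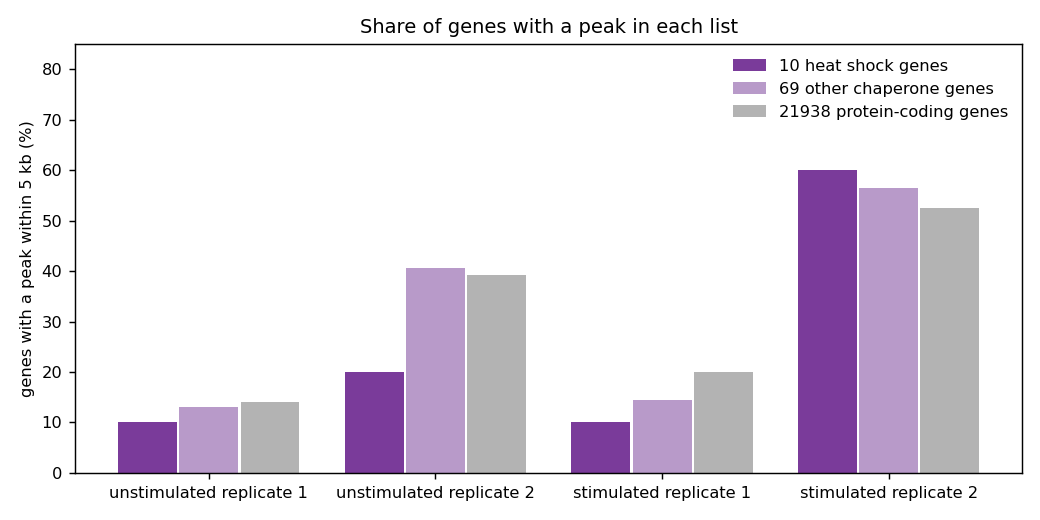
Bars give the percent of genes with a H3S10ph peak within 5 kb of the gene body, for the 10 heat shock genes, 69 other chaperone genes and all 21938 protein-coding genes, in each of the 4 lists. The 10 genes lie below the share of all protein-coding genes in 3 lists and at 60% against 52.5% in stimulated replicate 2. For genes within their range of lengths, not drawn, the shares were 4.95% and 23.8% in the unstimulated and 10.1% and 38.5% in the stimulated lists. Those of the 10 genes were 10% and 20%, and 10% and 60%.

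By pattern over the 4 lists, 0 of the 10 genes had a peak in both stimulated lists, against 15.3% of all protein-coding genes and 5.21% of those within the range of lengths. So 0 had one in both stimulated and neither unstimulated list (background 3.85% of all and 3.15% of those within the range of lengths, in which order both are given for the other patterns). Likewise 0 had a peak in both unstimulated and neither stimulated list (background 0.866% and 0.657%). A peak in stimulated replicate 2 only was found for 5 genes, *Hspa1a*, *Hspa8*, *Hsp90ab1*, *Cryab* and *Bag3* (background 18.1% and 23.0%). *Hsp90aa1* and *Hspb1* had a peak in 2 lists (at least 2 lists, background 37.2% and 17.6%), and *Hspa1b* and *Hsph1* had none in any list (background 31.1% and 43.2%). Without unstimulated replicate 1, *Hspb1* also had its peak in stimulated replicate 2 only. In all, 13 peaks lay in the windows of the 10 genes, 9 of them in stimulated replicate 2, and none overlapped a peak of another list. Across the genome 4.70% of the peaks did so.

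**Figure D2:**
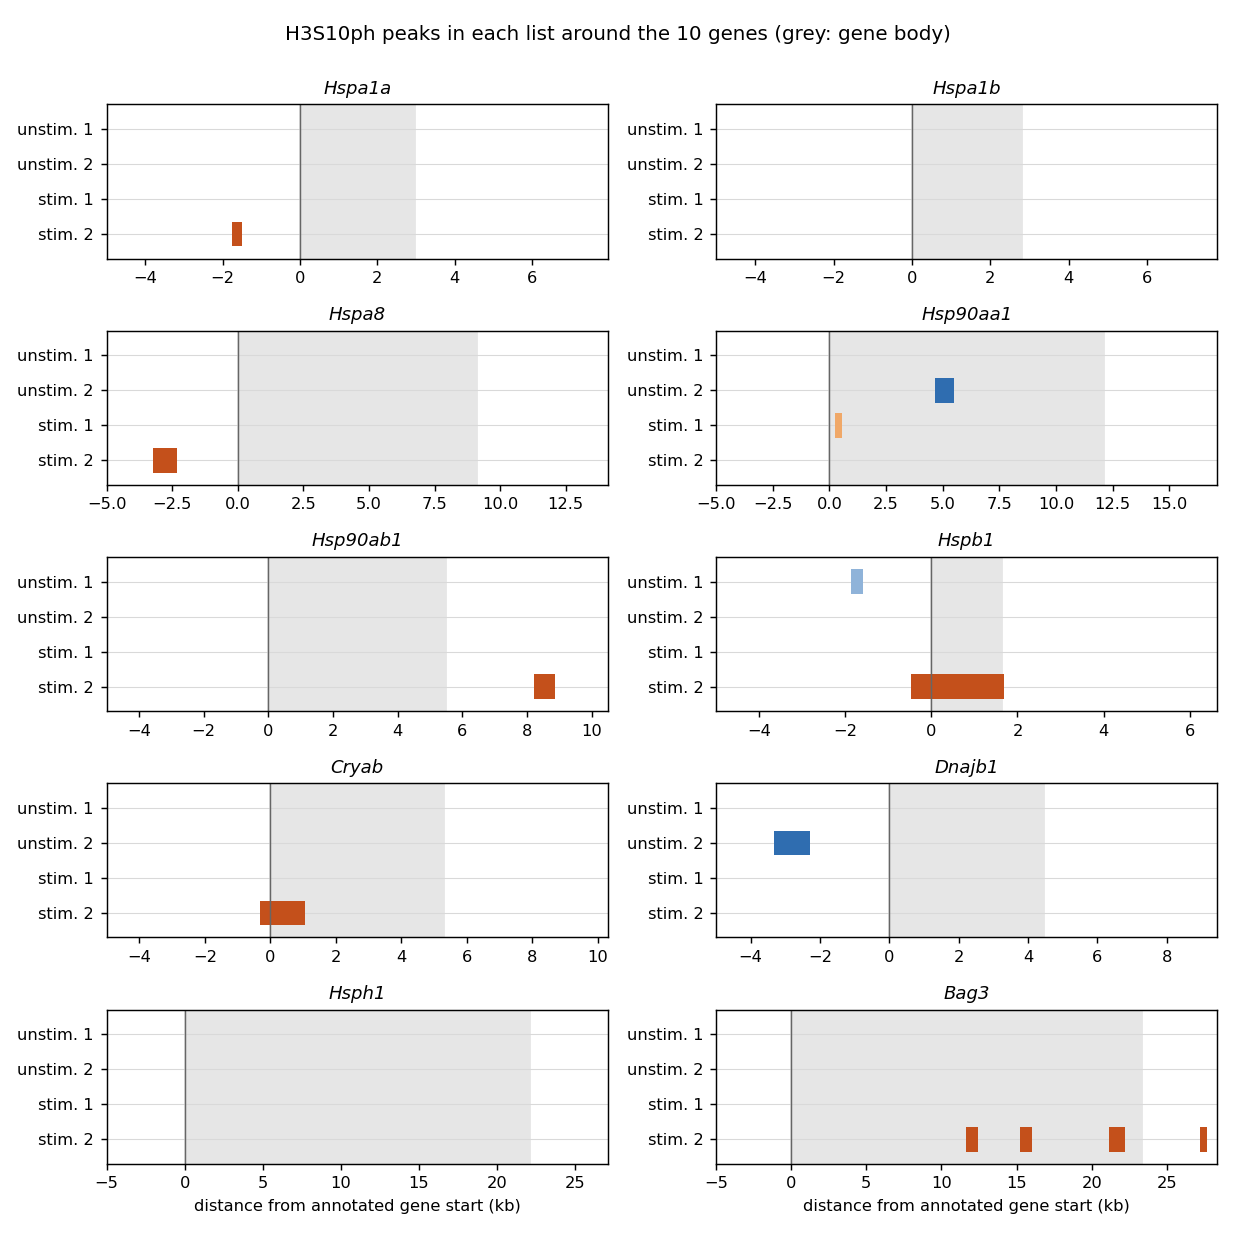
The 4 rows of each panel show the H3S10ph peaks of the 4 lists as bars along the distance from the annotated start of the gene in kb, from 5 kb before the gene to 5 kb after it, with the gene body in grey. *Hspb1* is the only gene covered from start to end, and no 2 lists share a peak position.

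The small heat shock genes carried the widest peaks. *Hspb1* encodes HSP25, a chaperone that protects actin filaments and is phosphorylated downstream of p38. The gene occupies positions 135887919 to 135889563 of chromosome 5 (plus strand). A peak of 2146 bp in stimulated replicate 2, from 135887453 to 135889598, began at −466 bp from the annotated start and ran past the 3′ end. It covered 100% of the gene, including 1031 exonic and 614 intronic bases. Its fold enrichment was 2.52 and its −log10 p was 3.28, which gave rank 634 of 40683, in the upper 1.56% of the list. No other peak of the 13 reached a −log10 p of 3, the cutoff named in the methods of the study. A peak of that strength lay within 5 kb of 4.04% of protein-coding genes in that list. The *Hspb1* peak was also the only one with a −log10 q above 0, but at 0.0965 its q-value was still high. So none of the 13 peaks had a low q-value, which also held for most peaks of every list. Unstimulated replicate 1 had a peak of 290 bp from 135886042 to 135886331, upstream of the gene and 1122 bp away from the position of the former, with a fold of 2.42 and rank 1176 of 9094. Unstimulated replicate 2 and stimulated replicate 1 had no peak in the window, and their nearest peaks were 22.8 and 32.3 kb from the gene. The gene body was therefore covered by 100% in 1 stimulated sample and by 0% in the other 3.

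Complete cover of a gene was rare. In stimulated replicate 2, 4 of 21938 protein-coding genes (0.0182%) were covered over their whole length, which were *Hspb1*, *Hspb2*, *Mt2* and the short gene AC140267.1, of 1645, 1277, 905 and 213 bp. In the other lists 0, 0 and 1 genes were. *Hspb2* encodes another small heat shock protein of muscle and *Mt2* a metallothionein, a metal-binding stress protein. These genes were singled out after their values were seen. Of the peaks of that list, 173 (0.425%) were at least as wide as the one on *Hspb1*, and 12 peaks, itself included, were as wide and ranked at least as high.

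*Cryab* encodes αB-crystallin, a small heat shock protein that is abundant in muscle and binds desmin. Its gene occupies positions 50751325 to 50756636 of chromosome 9 (plus strand) and starts inside *Hspb2*, which runs the other way. In stimulated replicate 2 a peak of 1384 bp, from 50751016 to 50752399, spanned the outermost annotated start of *Cryab* and covered 20.2% of it together with all of *Hspb2*. The peak held the starts of 2 of the 6 annotated *Cryab* transcripts and ended 508 bp from the next, so it cannot be assigned to either gene alone. Its fold was 2.07 and its −log10 p 2.15, and it ranked 22878 of 40683, in the lower part of its list. The other 3 lists had no peak in the window, with the nearest at 19.9 and 25.3 kb in the unstimulated lists and at 110 kb in stimulated replicate 1.

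The HSP70 genes had peaks in their flanks only. *Hspa1a*, a stress-inducible HSP70 gene with a single transcript, occupies positions 34969190 to 34972156 of chromosome 17 (minus strand). A peak of 249 bp in stimulated replicate 2, from 34973665 to 34973913, lay upstream at −1757 to −1509 bp from its start, within the neighbouring HSP70 gene *Hspa1l*. Its fold was 2.13 and its rank 14860. *Hspa1b*, the other inducible copy, lies from 34956436 to 34959238 on the same strand. No list had a peak in its window, and the nearest peak was 14.4 kb away, in stimulated replicate 2. *Hspa8*, the constitutive HSC70 that also uncoats clathrin vesicles, occupies positions 40800984 to 40810087 of chromosome 9 (plus strand). Stimulated replicate 2 had a peak of 900 bp from 40797767 to 40798666, which ended at −2318 bp from the start, with a fold of 2.02 and rank 30176. None of the 4 lists had a peak on the body of an HSP70 gene of the set.

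Among the partners of HSP70, *Bag3* had peaks in stimulated replicate 2 alone. Bag3 links HSP70 and small heat shock proteins to autophagy of damaged Z-disc proteins. The gene occupies positions 128523616 to 128546981 of chromosome 7 (plus strand), and 4 peaks lay in its window, 3 of them in the gene. These 3 began 11608, 15256 and 21156 bp after the start, were 849, 744 and 1033 bp wide and together covered 11.2% of the gene. The last of them overlapped 215 coding bases and the others were intronic. The second also covered all of another annotated gene, *2610306O10Rik*, so it cannot be assigned to either gene alone. The ranks of the 3 peaks were 31585, 18285 and 40358 of 40683. So the first and the last were in the lower 50% of the list and the second was not. No peak lay near the promoter. The fourth, of 498 bp, lay downstream of the gene. *Dnajb1*, the J domain partner induced by heat, lies on chromosome 8 from 83608193 to 83612653. Its window held a single peak, in unstimulated replicate 2, of 1034 bp and with rank 12602 of 32740, which lay upstream at −3320 to −2287 bp and within the gene *Tecr*. *Hsph1*, which encodes the HSP110 exchange factor on chromosome 5 from 149614287 to 149636376, had no peak in any list. The nearest was 34.8 kb away, in stimulated replicate 2.

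The HSP90 genes gave no common position. *Hsp90aa1* encodes the inducible HSP90α and occupies positions 110690605 to 110702728 of chromosome 12 (minus strand). In stimulated replicate 1 an intronic peak of 303 bp, from 110702187 to 110702489, began 239 bp after the start, with a fold of 2.21 and rank 8001 of 10901. In unstimulated replicate 2 an intronic peak of 836 bp, from 110697225 to 110698060, lay 4127 bp from it, with a fold of 2.02 and rank 24254 of 32740. They covered 2.5% and 6.90% of the gene, so the larger cover was in unstimulated muscle. *Hsp90ab1*, which encodes the constitutive HSP90β, occupies positions 45567775 to 45573271 of chromosome 17 (minus strand). Stimulated replicate 2 had a peak of 664 bp past its 3′ end, inside the gene *Slc35b2*, with a fold of 2.01 and rank 31585.

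Of the 13 peaks, 4 overlapped a protein-coding neighbour of the gene (*Hspa1l*, *Slc35b2*, *Hspb2* and *Tecr*). Relative to the start of the gene, 4 peaks lay upstream, 2 spanned the start, 5 lay within the gene and 2 downstream. An exon was touched by 3 of them. Their GC content ranged from 41.8% to 61.1%.

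The covered share of the windows was compared between the conditions. In unstimulated replicates 1 and 2 the mean over the 10 genes was 0.249% and 1.09%, and in stimulated replicates 1 and 2 it was 0.137% and 4.77%. The group means were 0.671 ± 0.597% (SD, n = 2) in unstimulated and 2.46 ± 3.28% (SD, n = 2) in stimulated muscles, a difference of 1.78 percentage points that was smaller than the spread between the stimulated samples. The lowest and the highest value both belonged to stimulated muscles. The number of genes with a peak was 1.5 ± 0.707 (SD, n = 2) against 3.5 ± 3.54 (SD, n = 2). Without stimulated replicate 2 the difference in covered share was -0.534 percentage points and that in the number of genes -0.5, and without unstimulated replicate 1 they were 1.36 points and 1.5 genes. Summed over the windows of all protein-coding genes, peaks covered 0.192% and 0.730% in the unstimulated and 0.26% and 1.31% in the stimulated lists. Summed in the same way, the 10 windows were covered by 0.153%, 0.987%, 0.160% and 4.47%, or without *Hspb1* by 0%, 1.05%, 0.170% and 3.56%. In stimulated replicate 2 the windows of *Hspb1*, *Bag3* and *Cryab* were covered by 18.4%, 9.36% and 9.04%, those of *Hspa8*, *Hsp90ab1* and *Hspa1a* by 4.71%, 4.28% and 1.92%, and the other 4 by 0%.

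**Figure D3:**
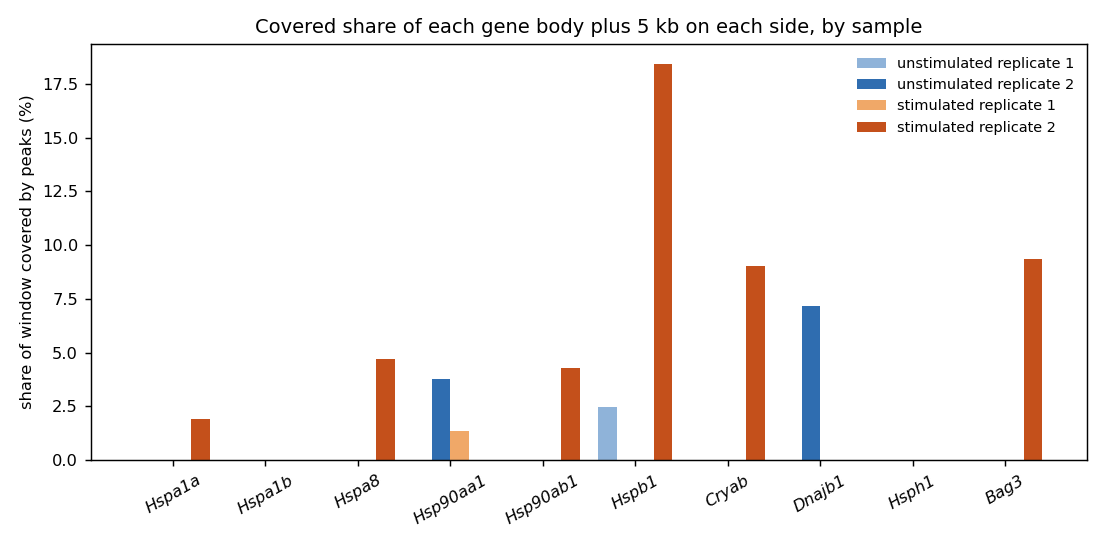
Bars give the percent of each window (gene body plus 5 kb on each side) covered by H3S10ph peaks in each of the 4 samples. *Hspb1* reaches 18.4% in stimulated replicate 2, *Dnajb1* has cover in unstimulated replicate 2 only, and *Hspa1b* and *Hsph1* have none.

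Fold enrichment was computed separately for each list, so the peaks were ranked in their own list, rank 1 being the highest. The 9 peaks of stimulated replicate 2 lay between 1.56% and 99.2% of the list from the top, with a median of 56.2%. The 2 peaks of unstimulated replicate 2 lay at 38.5% (*Dnajb1*) and 74.1% (*Hsp90aa1*), that of stimulated replicate 1 at 73.4% (*Hsp90aa1*) and that of unstimulated replicate 1 at 12.9% (*Hspb1*). Only the *Hspb1* peak of stimulated replicate 2 was in the upper 10% of its list, and 6 of the 13 peaks were in the upper 50%. Many weak peaks share a fold: the peaks at *Hsp90ab1* and the first in *Bag3* had the same fold of 2.01 as 8179 peaks of that list, and were given the best rank among them. The folds of the *Hsp90aa1* peaks were held by 7684 peaks in unstimulated replicate 2 and by 705 in stimulated replicate 1. Their ranks are therefore also the best of a tie. The q-value was 1 for 12 of the 13 peaks. The same held for 96.0% and 99.0% of all peaks in the unstimulated and 88.7% and 98.9% in the stimulated lists.

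**Figure D4:**
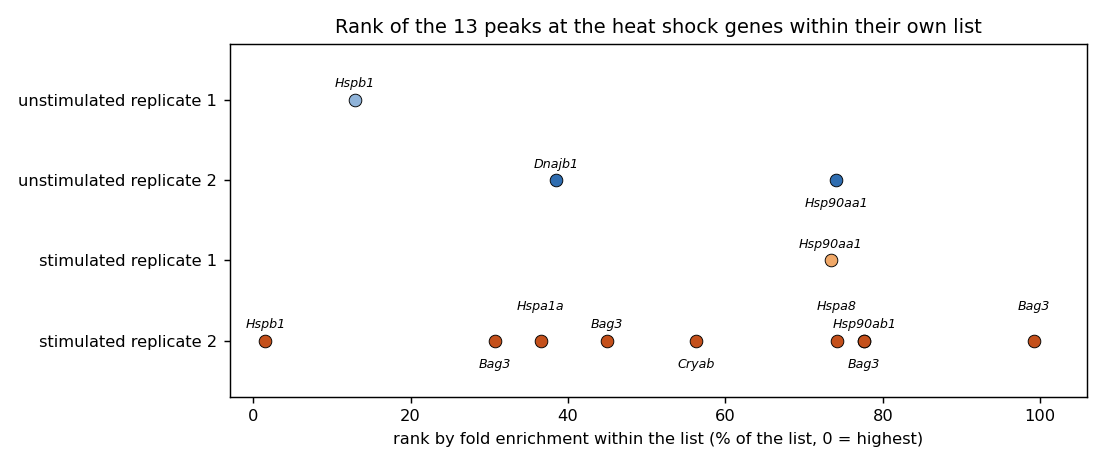
Each point is a H3S10ph peak at one of the 10 genes, placed by its rank for fold enrichment in its own list as a percent of the list (0 being the highest), in rows for the 4 lists. The *Hspb1* peak of stimulated replicate 2 stands at 1.56% and the others lie between 12.9% and 99.2%; the points of *Hsp90ab1* and of a *Bag3* peak coincide.

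When only the 9094 peaks with the best −log10 p of each list were kept, the list of unstimulated replicate 1 still gave *Hspb1* and that of stimulated replicate 1 *Hsp90aa1*, that of stimulated replicate 2 gave *Hspb1* alone and that of unstimulated replicate 2 none. The shares of all protein-coding genes were then 14.0%, 16.2%, 17.1% and 21.3% in the order unstimulated replicates 1 and 2 and stimulated replicates 1 and 2.

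Reads that map to several places were removed by the authors, so sequence that recurs elsewhere adds few or no reads to a peak. To measure this, each gene body was divided into overlapping words of 50 bases, and a word was counted as repeated when it occurred more than once on either strand of the genome. The read length is not given in the sources used here, so words of 36, 75 and 100 bases were also counted. Repeated words made up 60.3% of *Hspa1a* and 62.3% of *Hspa1b*. At 100 bases the shares were still 48.6% and 49.9%. Of the words of *Hspa1b*, 62.3% occurred in *Hspa1a*. For these genes a missing peak on the gene body was therefore in part not measurable. The share was 32.6% for *Hspb1*, whose repeated words all occur in the processed pseudogene *Hsp25-ps1* on chromosome 13. No list had a peak at that pseudogene, and the *Hspb1* peak of stimulated replicate 2 extended over the repeated sequence, which made up 24.8% of it. For *Hsp90aa1* and *Hspa8* the shares were 17.2% and 16.9%, and most of their repeated words lie in processed pseudogenes, such as *Gm12346* on chromosome 11 and *Gm15459* on chromosome 5. *Hsp90ab1* had 3.40%, *Bag3* 1.46%, *Hsph1* 0.935%, *Dnajb1* 0.385% and *Cryab* 0.228%, so for *Hsph1*, which had no peak, repeated sequence was under 1% of the gene.

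**Figure D5:**
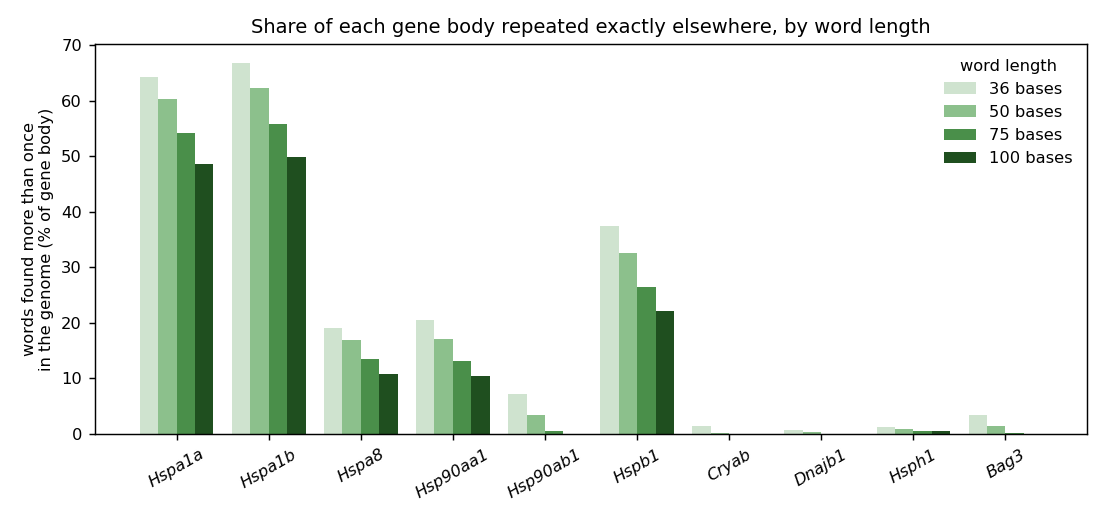
Bars give, for each gene body, the percent of its words of 36, 50, 75 and 100 bases that occur more than once in the genome. *Hspa1a* and *Hspa1b* stand highest at every word length, followed by *Hspb1*, and *Cryab*, *Dnajb1* and *Hsph1* are below 2% at each.

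The promoters of 6 of the 10 genes matched the RefSeq table, and *Hspa8*, *Hsp90aa1*, *Hsp90ab1* and *Cryab* were not matched. No list had a peak over the promoters of *Hspa1a*, *Hspa1b*, *Dnajb1*, *Hsph1* and *Bag3*. The promoters were searched on both strands for 3 alternating triplets 2 bases apart, GAANNTTCNNGAA or TTCNNGAANNTTC, which is the form of a complete heat shock element. Of the 32851 promoters of the table, 0.603% held it. *Hsph1* alone among the 6 genes held it, as TTCtgGAAagTTC, with the triplets in capitals, on chr5:149636288-149636300. This site began 36 and 15 bp after the RefSeq starts of the gene, so it lay downstream of them. A pair of neighbouring triplets, GAANNTTC or TTCNNGAA, was found in 15.1% of all promoters and in those of *Hspb1*, *Hsph1*, *Bag3*, *Hspa1a* and *Hspa1b*. Only exact triplets were counted, so an element with an altered triplet would be missed. These matches describe the sequence only.

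The rest of the chaperone system was read from a list of 69 genes. Of these, 9 and 28 had a peak within 5 kb in the unstimulated and 10 and 39 in the stimulated lists, or 13%, 40.6%, 14.5% and 56.5%, near the shares of all protein-coding genes given above. Of the heat shock factor genes *Hsf1*, *Hsf2* and *Hsf4* and *Hsbp1*, which encodes a protein that binds heat shock factors (4 genes), 1 and 1 had a peak in the unstimulated and 1 and 4 in the stimulated lists. Of 6 other small heat shock genes, 0 and 2 had a peak in the unstimulated and 0 and 4 in the stimulated lists. The best-ranked peaks of *Hspb2* here and of *Hspa1l* among the HSP70 genes below are those already described at *Cryab* and *Hspa1a*. Of 12 other J domain genes, 2 and 4 had one in the unstimulated and 3 and 8 in the stimulated lists. Of 12 other genes of HSP90 and its co-chaperones, 2 and 7 against 1 and 6 did, of 11 other HSP70 and HSP110 genes 0 and 5 against 1 and 6, and of 10 chaperonin genes 1 and 5 against 1 and 5. Of 8 other exchange and degradation factors 1 and 2 against 2 and 4 did, and of 6 chaperones of the endoplasmic reticulum 2 and 2 against 1 and 2. A peak in both stimulated lists was found for 6 of the 69 genes (background 15.3%). A peak in both stimulated and neither unstimulated list was found for 1 of the 69 genes, *Dnajc3*, an inhibitor of the eIF2α kinases (background 3.85%). Its peaks in the 2 lists lay 2747 bp apart and did not overlap, at 88.9% of the list of replicate 1 and at best at 17.7% of that of replicate 2. *Pdia3*, a disulphide isomerase of the endoplasmic reticulum, was the only 1 of the 69 genes with a peak in all 4 lists, and its peaks in different lists did not overlap.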

How the data were processed

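H3S10ph ChIP-seq of 4 samples was analysed. According to the methods and the submitters' processing notes, the authors mapped reads to mm10 with BWA, discarded multi-mapping reads (bamtools 2.4.0), thinned the replicates to the depth of the shallowest and then called broad peaks in each sample against input DNA with MACS2 2.1.1. The deposited lists give, for each peak, a fold enrichment (a ratio over background) and the −log10 of p and q. The stated cutoff was p 0.001, while the lowest −log10 p in the lists lay between 2.00 and 2.04. Intervals cannot be given without counts.

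Genes were those of GENCODE release M21 (GRCm38, the assembly of mm10), from the outermost start to the outermost end. Overlaps were computed with Python 3.11.15, numpy 2.4.6 and pandas 2.3.3 and tested on simulated data against bedtools 2.31.1. Repeated words were searched in 65 sequences of the C57BL/6J primary assembly. Of the 69 other chaperone genes, 68 are annotated as protein-coding. All 10 genes are named. Of the other genes, those with a peak in both stimulated and neither unstimulated list or in all 4 lists are named, and others only where said to be chosen after their values were seen. The 10 genes were chosen by name, and they and the other gene lists were set with earlier results of these data known. Figures were drawn with matplotlib 3.10.9.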

Additional observations from a re-analysis of the deposited data

How the results depend on the processing

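No gene had a peak in both stimulated and neither unstimulated list with a window of 10 kb on each side. The gene body alone, the thresholds, the equal lists and the overlap of 50% only remove peaks. Since no gene had a peak in both stimulated lists to begin with, their count of 0 was fixed in advance. Without stimulated replicate 1 this count was 5, because the condition then rests on the longest list alone, and leaving out each sample in turn gave 0 to 5. On the gene body alone, 0 and 1 genes had a peak in the unstimulated and 1 and 3 in the stimulated lists, and the difference in covered share was 6.35 percentage points, with *Hspb1* covered by 100% in stimulated replicate 2. With only peaks of −log10 p 2.5 or more the counts were 1 and 0 against 0 and 1, and at 3 they were 0 and 0 against 0 and 1. With equal numbers of top peaks they were 1 and 0 against 1 and 1. The difference in covered share ranged from -0.534 to 4.10 percentage points when 1 sample was left out, and that in the number of genes with a peak from -0.5 to 4.5. Both were negative only without stimulated replicate 2, so the direction rests on that list. A window of 10 kb on each side or a peak lying at least 50% inside the window changed no count. According to the study both conditions came from the same mice, which was not tested. The sources used here do not say that equal replicate numbers mark the same pool. With the replicate number as a block the mean differences were the same, 1.78 percentage points and 2 genes, made up of -0.112 and 3.68 points and of 0 and 4 genes within replicates 1 and 2. Ranked by −log10 p, 12 of the 13 peaks stayed within 1.5 times their rank by fold. Among peaks of −log10 p 2.5 or more, the *Hspb1* peak of stimulated replicate 2 ranked at 8.91% from the top and that of unstimulated replicate 1 at 21.2%. The difference in covered share of a single gene changed sign for *Hspb1* without stimulated replicate 2 (-1.25 points) and for *Hsp90aa1* without unstimulated replicate 2 or with equal lists (0.685 points). The share of repeated words stayed within 1.5 times for 6, 5 and 3 of 10 genes at words of 36, 75 and 100 bases.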

Other observations

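The genes of this paragraph were singled out after their values were seen. *Hsf1*, which encodes the heat shock factor itself, had an intragenic peak in both stimulated lists (background within 5 kb 15.3% of protein-coding genes). That of replicate 1, of 236 bp on chromosome 15 from 76481047 to 76481282, and that of replicate 2, of 279 bp from 76481604 to 76481882, did not overlap and lay 322 bp apart, about 4 kb after the start of the gene. Their ranks were 6578 of 10901 and 5604 of 40683. Unstimulated replicate 2 had a peak in the downstream flank of *Hsf1* only, and stimulated replicate 2 had a second peak there, of 874 bp. *Dnajb5*, a J domain gene, was the only 1 of the 69 other chaperone genes whose peaks in the stimulated lists overlapped, at chr4:42956840-42957333 in replicate 1 and chr4:42956679-42957600 in replicate 2, with rank 5208 of 10901 and 7496 of 40683. Unstimulated replicate 2 had a peak of 244 bp at another position of that gene, and unstimulated replicate 1 had none. Such an overlap was not particular to that gene. Among the genes that mark skeletal muscle, *Acta1*, *Tnnt3* and *Atp2a1* had overlapping peaks in the stimulated lists, while those of *Pvalb* and *Actn3* did not overlap. Each of these marker genes also had a peak in unstimulated replicate 2. How many of all protein-coding genes had overlapping peaks in both stimulated lists was not counted. *Hspb8*, a small heat shock gene whose protein works with Bag3, had a peak of 262 bp just upstream of its start in stimulated replicate 2. Its fold was 2.43, its −log10 p 2.97 and its rank 1273 of 40683. A second peak, of 632 bp, lay within the gene with rank 26781. The other 3 lists had no peak in its window. A peak in stimulated replicate 2 only was found for 18.1% of all protein-coding genes and 23.0% of those within the range of lengths. None of these differences between the conditions was tested.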
